A study of Mus musculus with 8 samples.

Results

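The change in lung RNA that came with air breathing was compared between mice with and without *Snx5*, a sorting nexin of the endosome, in all 8 arrays of the series. The members are samples: 4 arrays with the treatment air and 4 with the treatment non-air, taken by these labels, each state made of 2 arrays of Snx5+/+ (wild type) and 2 of Snx5-/- (mutant) lungs. The genes described are those that passed the test of air against non-air over both genotypes and moved the same way in each, with genes of the X and Y chromosomes left out. Each array held RNA of a whole mouse lung at embryonic day 18.5, and the air groups are titled as air-breathing. The mice are C57BL/6 by backcross: the study's methods describe heterozygotes of the trap line crossed repeatedly to C57BL/6 mice and then interbred. The mutant allele is a gene trap from 1 embryonic stem cell line (XA155), carried by all cells of the mouse, with the trap cassette lying between exons in the middle of the gene. The labels give neither the time spent in air nor the litter or sex of a lung, and the study's methods on breathing describe pups delivered by caesarean section at this age and kept warm. Since nothing in the labels names separate litters, p-values measure the spread between these arrays. The study's methods call the array replicates biological, 2 each for Snx5+/+ and Snx5-/- lungs, but name neither the air groups nor litters. How much of the spread is technical is not known. The files were labelled in conflict: the log2 values and the non-normalized intensities of the same arrays carry exchanged air labels, with each intensity column following the log2 column of the other air state in its genotype (Spearman's rho of at least 0.99975). Detection p-values beside those intensities followed the log2 labels, with rho from -0.966 to -0.951 against -0.939 to -0.916 for the other state. All directions below are those of the log2 labels, and every one of them turns if the intensity labels are right.

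At birth the lung is drained of fluid, stretched and filled with a gas much richer in oxygen than the fetal blood supply, while the vessels of the lung open to the full output of the heart. Flat alveolar type I cells then carry gas exchange and type II cells supply surfactant. Stretch, blood flow and stress hormones are known to induce immediate-early genes within minutes in many cell types, and neutrophils, made in the fetal liver and marrow, reach the lung by the blood.

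Markers of the lung were present on every array. Those of type I and type II cells (*Ager*, *Aqp5*, *Sftpb*, *Sftpc*), secretory, ciliated, endothelial, smooth muscle and fibroblast cells were detected on all 8 arrays, as were erythroid markers and 3 of 4 cardiac ones, whereas *Alb*, *Afp* and *Apoa1* of the liver and 3 of 3 thymus markers were detected on none. The *Snx5* probe ILMN_2706101 read 7.88, 7.85, 7.84 and 8.42 in Snx5+/+ lungs and 7.23, 7.24, 7.29 and 7.10 in Snx5-/- lungs, although it was detected on 1 array only, and a further *Snx5* probe was detected on none. Sex-linked genes did not fall evenly over the groups. The Y gene *Eif2s3y* read 11.81 and 11.73 on the Snx5-/- air arrays and 7.13 to 7.40 on the other 6, and *Xist* read 7.83 and 7.77 there against 11.82 to 12.58. Within Snx5-/- lungs, air and sex-linked expression therefore cannot be told apart, so the differences of the called genes described are also given by array or by genotype, in the order Snx5+/+ and Snx5-/- where a pair of values follows a gene. The 2 Snx5+/+ non-air arrays differed from each other by 0.236 (SD of the log2 difference), where the other pairs had 0.161 to 0.198. A probe was called detected at a detection p-value under 0.01, and each array had between 12209 and 12685 detected probes of 25697.

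Of 9339 genes tested off X and Y, 47 were higher in air (0.503% of the genes tested) and 9 were lower (0.0964%). A call required an adjusted p under 0.05 (limma, Benjamini-Hochberg) and a log2 difference past 0.35 in the model with genotype as a covariate. All 47 and all 9 moved the same way in Snx5+/+ and Snx5-/- lungs, and in each genotype both air arrays lay beyond both non-air arrays, which held for 11.7% of all genes tested. The fit that picked these genes counts a difference of effect between genotypes as spread, and so favours genes alike in both. Their agreement, here and in the counts that follow, describes the genes picked and is no separate support for a shared response. The difference was past 0.35 in each genotype separately for 41 of the 47 and for 8 of the 9. Across genotypes, all 4 air arrays lay above all 4 non-air arrays for 33 of the 47 (3.27% of all genes) and below them for 6 of the 9 (2.76%). The other called genes differed between genotypes by enough for the states to overlap. At an unadjusted p under 0.05, 597 genes were higher and 459 lower. With the level of *Xist* as a covariate, 25 of the 47 and 6 of the 9 were still called. Since *Xist* was low on the Snx5-/- air arrays alone, this covariate nearly marks that group. The air term then rests mainly on the Snx5+/+ arrays, so the count cannot separate sex from air and is no test of a shared response. With neqc normalization of the intensities 11 genes were called higher and 1 lower, all among these 56. A plain t-test of 4 arrays against 4, without genotype as a term, called 0 genes after Benjamini-Hochberg adjustment. At an unadjusted p under 0.05 it had 438 genes higher and 399 lower. The study's own procedure joined a t-test with a median ratio test by permutation p-values, and was not run here. The number of calls fell when most arrays were left out, to 11 higher and 2 lower genes without the second Snx5-/- air array, to 13 and 2 without the first Snx5-/- non-air array and to 18 and 1 without either of the Snx5+/+ air arrays. It was 23 and 4 without the second Snx5-/- non-air array, 29 and 6 without the first Snx5-/- air array and 33 and 4 without the first Snx5+/+ non-air array. Called with each of the 8 arrays left out in turn were 11 genes: *Fcgr4*, *S100a9*, *Stfa2*, *Camp*, *Ltf*, *Bhlhe40*, *Depp1*, *Srm*, *Hlx*, *Prom2* and *Pisd-ps2*.

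**Figure D1:**
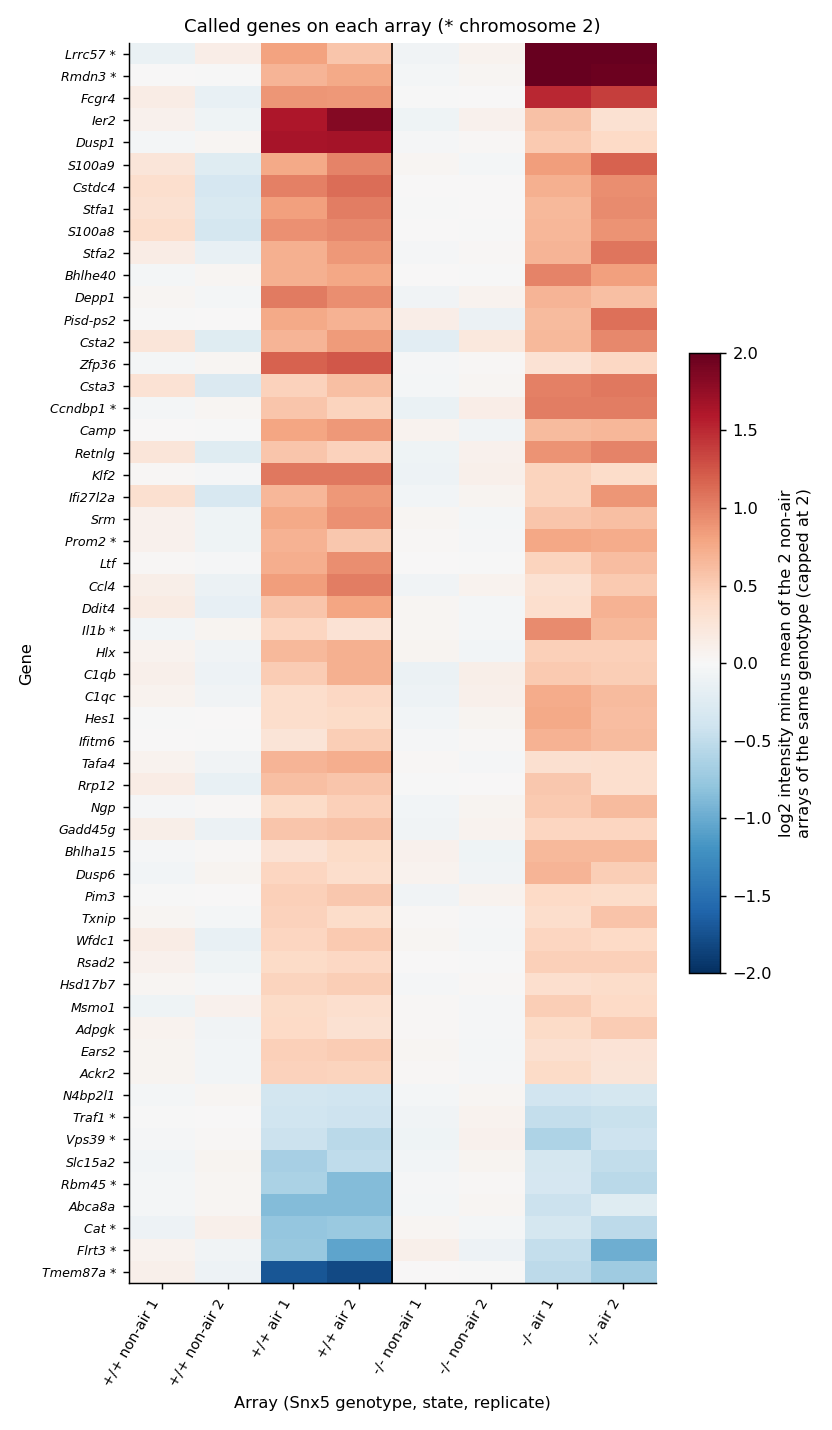
Log2 intensity of the 56 called genes (rows) on each of the 8 arrays (columns, grouped by genotype and state), minus the mean of the 2 non-air arrays of the same genotype, with colour capped at 2. The air columns are red for the 47 higher genes and blue for the 9 lower genes in both genotypes, and *Ier2*, *Dusp1* and *Zfp36* are darker in Snx5+/+, *Lrrc57* and *Rmdn3* in Snx5-/-.

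Over all genes the differences with air were nearly unrelated in the 2 genotypes. The air differences of Snx5+/+ and Snx5-/- lungs, which share no array, had a Pearson r of 0.085 and a Spearman rho of 0.033 across the 9339 genes, which are not independent of each other, and 50.7% of genes had the same sign. Genes called within 1 genotype alone, in a fit of the 4 group means, were then read in the other. In Snx5+/+ lungs alone, 60 genes were higher (0.642%) and 18 lower (0.193%). Of the 60, 49 (81.7%) were also higher in Snx5-/- lungs, where 49.2% of all genes were, and 27 were past 0.35 there (2.40% of all genes). Their median log2 difference was 0.75 in Snx5+/+ and 0.30 in Snx5-/- lungs. In Snx5-/- lungs alone, 53 genes were higher (0.568%) and 8 lower (0.0857%). Of those 53, 38 (71.7%) were higher in Snx5+/+ lungs too and 20 were past 0.35 (5.11% of all genes). Of genes that fell, 10 of 18 Snx5+/+ calls (55.6%) were lower in Snx5-/- lungs and 3 of 8 Snx5-/- calls (37.5%) lower in Snx5+/+ lungs, where 50.8% of all genes were lower in each. Without the first Snx5+/+ non-air array the Snx5+/+ calls numbered 860 in both directions together, of which 43.5% kept their sign in Snx5-/- lungs, against 78 and 75.6% with all arrays. Called within each genotype alone in the same direction were 11 genes that rose and 1 that fell. A further 1 gene was called within both in opposite directions. The 11 are 18.3% of the 60 Snx5+/+ rises, where 0.568% of all genes were called higher in Snx5-/- lungs. The 1 that fell is 5.56% of the 18 Snx5+/+ falls, where 0.0857% of all genes were called lower in Snx5-/- lungs.

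**Figure D2:**
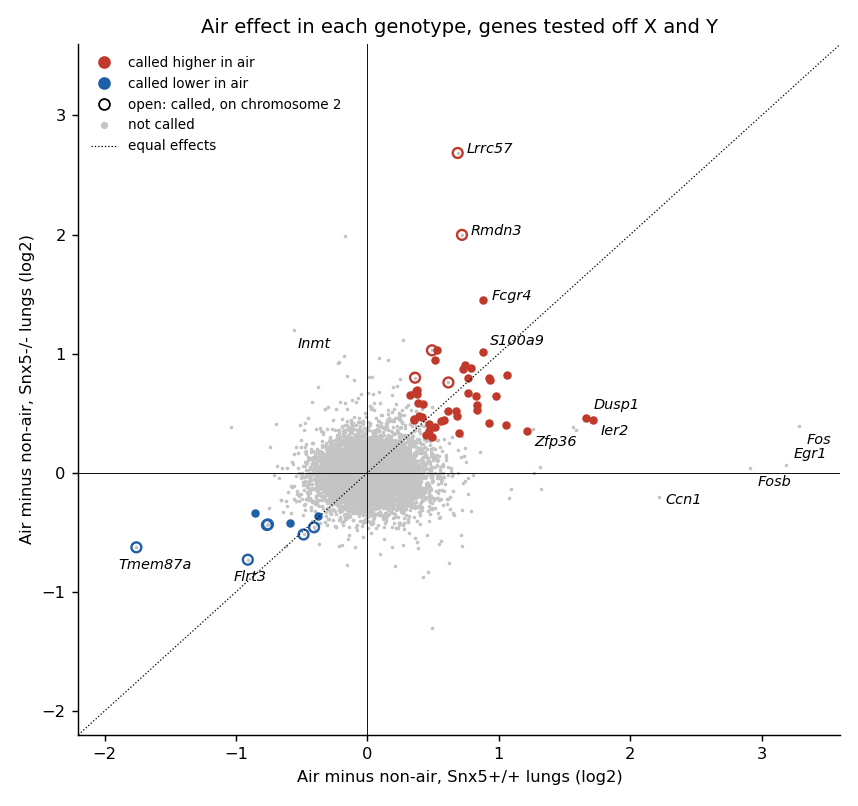
Air minus non-air difference (log2) of each tested gene off X and Y in Snx5+/+ lungs (x axis) and Snx5-/- lungs (y axis), with called genes in red (higher) and blue (lower), open where on chromosome 2, and the line of equal effects dotted. The 47 and 9 called genes lie at the upper right and lower left, while *Fos* and *Egr1* lie along the x axis with Snx5-/- differences of 0.39 and 0.07.

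Neutrophil granule genes, whose products fill the granules and cytosol of neutrophils and act against microbes, held more calls than any other list. Of 15 genes listed, 10 were tested, 6 rose and 0 fell, and the median log2 difference was 0.60 (0.61 in Snx5+/+, 0.55 in Snx5-/-), against -0.000827 over all genes tested. For this and each later list, the shares called over all genes tested were 0.503% higher and 0.0964% lower. All lists were chosen with earlier results of these data known, so their counts only describe the members. *S100a9*, which encodes a subunit of calprotectin, read 10.72 and 10.25 on the Snx5+/+ non-air arrays, 11.24 and 11.48 on the Snx5+/+ air arrays, 11.38 and 11.29 on the Snx5-/- non-air arrays and 12.17 and 12.52 on the Snx5-/- air arrays. Each genotype was higher with air, while the Snx5-/- non-air arrays were about as high as the Snx5+/+ air arrays. The difference of 0.94 ± 0.12 (SE), a 1.92-fold rise, passed the test (adjusted p = 0.00518), and the effect in Snx5-/- minus that in Snx5+/+ was 0.14 ± 0.23. Its partner subunit *S100a8* read 12.72 and 12.01 without and 13.28 and 13.32 with air in Snx5+/+ lungs, and 13.25 and 13.22 without and 13.90 and 14.13 with air in Snx5-/- lungs. All 4 air arrays were above all 4 non-air arrays, by a narrow gap, for a rise of 0.86 ± 0.13 (adjusted p = 0.0169). Like others of the 47, of which 25 stayed called, it lost its call by limma with *Xist* as a covariate (adjusted p = 0.051).

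The genes of this pair lie near each other on chromosome 3, and their promoter windows are shown because both members rose together and both hold the letters TATAAA, given in capitals. Sequences are RefSeq windows of 300 bases around the annotated start (GRCm38.p6), printed 5′ to 3′ on the strand of the gene. *S100a8* lies at chr3:90668821-90669120 on the plus strand and *S100a9* at chr3:90695672-90695971 on the minus strand.
S100a8: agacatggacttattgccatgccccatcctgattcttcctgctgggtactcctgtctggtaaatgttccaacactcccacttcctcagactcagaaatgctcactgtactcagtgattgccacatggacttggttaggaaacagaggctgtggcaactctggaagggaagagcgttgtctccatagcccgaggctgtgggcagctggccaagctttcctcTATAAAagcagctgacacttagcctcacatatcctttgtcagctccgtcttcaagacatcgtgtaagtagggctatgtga
S100a9: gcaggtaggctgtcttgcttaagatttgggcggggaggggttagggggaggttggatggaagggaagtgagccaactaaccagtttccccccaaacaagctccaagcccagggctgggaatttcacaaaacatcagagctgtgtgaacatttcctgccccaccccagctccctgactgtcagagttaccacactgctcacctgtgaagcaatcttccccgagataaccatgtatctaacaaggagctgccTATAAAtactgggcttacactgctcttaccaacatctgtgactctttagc
Counting the annotated start as position 0, the run starts at -30 in *S100a8* and at 0 in *S100a9*. Of the 47 genes that rose, 38 have such a window, and TATAAA, on either strand, was in 6 of them (15.8%), against 7.54% of 7548 tested genes with a window and 14.2% of all 27025 windows.

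The antimicrobial peptide gene *Camp* showed the change on a lower level, with 7.90 and 7.88 (Snx5+/+ non-air), 8.68 and 8.76 (Snx5+/+ air), 8.41 and 8.26 (Snx5-/- non-air) and 8.96 and 9.0 (Snx5-/- air). No non-air array reached an air array. The probe was not above background on either Snx5+/+ non-air array, so that the rise was at least 1.71-fold in Snx5+/+ lungs, with a log2 difference of 0.64 in Snx5-/- lungs and an adjusted p of 0.00209 over both. *Ltf*, for the iron-binding lactoferrin, read 8.84 and 8.78 without and 9.54 and 9.74 with air in Snx5+/+ lungs, and 9.18 and 9.16 without and 9.61 and 9.78 with air in Snx5-/- lungs. It rose by 0.68 ± 0.09 (adjusted p = 0.00705) with no overlap of states. *Ngp*, another granule protein, was not above background on either Snx5+/+ non-air array and rose at least 1.34-fold in Snx5+/+ lungs, with a log2 difference of 0.58 in Snx5-/- lungs (adjusted p over both = 0.0143). *Retnlg*, for a resistin-like secreted protein, completed the 6 with 0.73 ± 0.12 (0.51 and 0.95 by genotype, adjusted p = 0.0213). Of the members without a call, *Lcn2*, which binds bacterial siderophores, differed by 0.51 (adjusted p = 0.05032), *Mmp9* by 0.31, and *Chil3* by 0.25, while *Prtn3*, a protease of primary granules, was not above background on any array. The summed linear intensity of the 10 genes was 12200 to 16500 on Snx5+/+ non-air, 24300 to 24400 on Snx5+/+ air, 21300 to 21400 on Snx5-/- non-air and 31700 to 36100 on Snx5-/- air arrays. In whole lung, more cells of a type and more RNA per cell cannot be told apart. Erythroid genes, as another measure of blood, summed to 77300 to 78100 on Snx5+/+ non-air, 79900 to 80300 on Snx5+/+ air, 77700 to 77800 on Snx5-/- non-air and 74200 to 74400 on Snx5-/- air arrays, and their part in these results was not tested.

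Outside that list, genes of the stefin A family on chromosome 16, inhibitors of cysteine proteases that myeloid cells make in quantity, rose as well. They were *Cstdc4* (0.94 ± 0.13, 1.06 and 0.82 by genotype), *Stfa1* (0.86 ± 0.12, 0.93 and 0.80), *Stfa2* (0.83 ± 0.10, 0.79 and 0.88), *Csta2* (0.78 ± 0.13, 0.77 and 0.80) and *Csta3* (0.78 ± 0.13, 0.53 and 1.03), with adjusted p from 0.00481 to 0.0234 (limma). *Stfa2* read 8.93 and 8.63 on the Snx5+/+ non-air arrays, 9.49 and 9.65 on the Snx5+/+ air arrays, 9.30 and 9.35 on the Snx5-/- non-air arrays and 10.01 and 10.39 on the Snx5-/- air arrays, with all air arrays above all non-air arrays. The family is made of near-identical copies, so that 1 probe may read RNA of several, and the 5 genes are not 5 separate observations. *Fcgr4*, an activating Fc receptor for immunoglobulin G on myeloid cells, had the largest rise of the called genes that are not on chromosome 2: it read 9.22 and 8.93 without and 9.96 and 9.94 with air in Snx5+/+ lungs, and 9.05 and 9.06 without and 10.57 and 10.44 with air in Snx5-/- lungs. The states lay far apart and the rise of 1.16 ± 0.12, or 2.24-fold, passed the test (adjusted p = 0.00209).

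**Figure D3:**
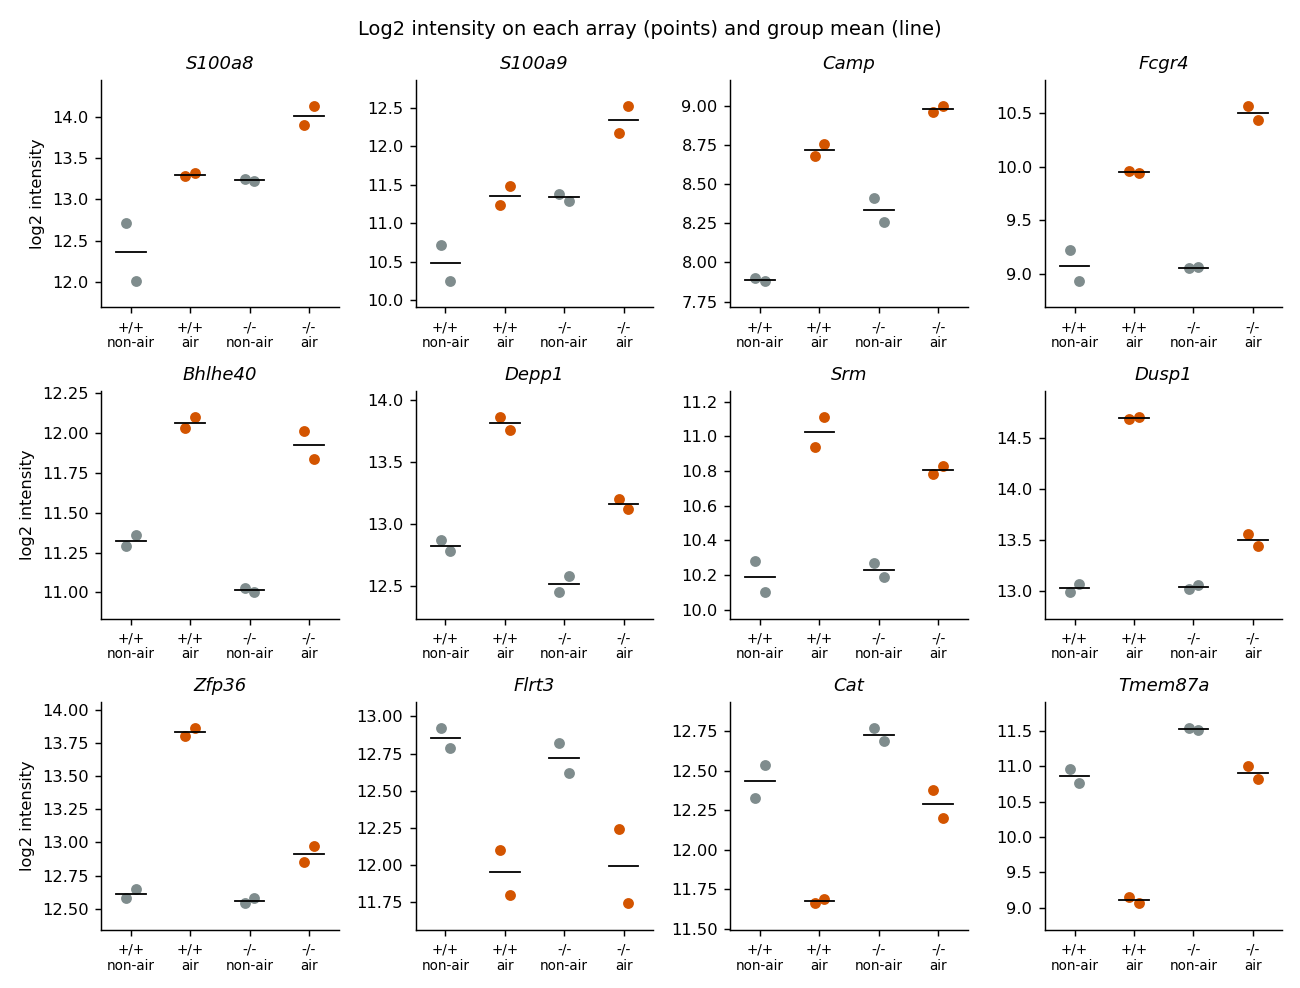
Log2 intensity (y axis, its range set per gene) of 12 called genes on each array (points) with the group mean (line), by genotype and state on the x axis, grey for non-air and orange for air. *S100a8* and *S100a9* are higher in Snx5-/- than in Snx5+/+ lungs in each state, *Bhlhe40* and *Srm* reach similar air levels in both genotypes, and *Dusp1* and *Zfp36* reach a lower air level in Snx5-/- lungs.

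Macrophage genes held fewer calls than neutrophil granule genes. Of 13 tested, 2 rose and 0 fell, against 0.503% and 0.0964% of all genes tested. The median was 0.20, with 11 of 13 above 0. The 2 that rose were chains of complement C1q, *C1qb* at 0.56 ± 0.09 (adjusted p = 0.0172) and *C1qc* at 0.54 ± 0.09 (0.38 and 0.70 by genotype, adjusted p = 0.0234), while *C1qa* differed by 0.20 (adjusted p = 0.40). *C1qb* read 10.40 and 10.20 (Snx5+/+ non-air), 10.81 and 11.01 (Snx5+/+ air), 10.23 and 10.47 (Snx5-/- non-air) and 10.87 and 10.85 (Snx5-/- air), with no overlap between states. *Adgre1*, *Mrc1* and *Lyz2* differed by 0.19, 0.22 and 0.01, and the summed intensity of the 13 genes was 97500 to 115000 without and 101000 to 112000 with air, so that the states overlapped. Of 14 genes for inflammatory signals and NF-κB targets, 2 rose, 0 fell, and the median was 0.04. *Ccl4*, a chemokine, was not above background on any non-air array and at least 1.5-fold higher in air (1.72-fold and 1.31-fold by genotype), and *Il1b*, for interleukin-1β, was at least 1.43-fold higher (1.22-fold and 1.68-fold), detected on 0 non-air and 3 of 4 air arrays. *Cxcl1* differed by 0.49 in Snx5+/+ and -1.31 in Snx5-/- lungs. These bounds set the mean of the air arrays against the lowest signal of detected probes.

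Genes that respond to oxygen supply and energy state were read by list, where 0.503% of all genes tested were called higher and 0.0964% lower. Of 20 hypoxia-response genes tested, 2 rose, 0 fell and the median was -0.0004. *Bhlhe40*, a transcriptional repressor of the circadian clock that is also induced by low oxygen, read 11.29 and 11.36 on the Snx5+/+ non-air arrays, 12.03 and 12.10 on the Snx5+/+ air arrays, 11.03 and 11 on the Snx5-/- non-air arrays and 12.01 and 11.84 on the Snx5-/- air arrays. The states were clear of each other in both genotypes and the air levels nearly equal, for a rise of 0.82 ± 0.08 (1.77-fold, adjusted p = 0.00141, the lowest of all called genes) and a difference between genotypes of 0.16 ± 0.15. *Ddit4*, an inhibitor of mTORC1, rose by 0.60 ± 0.11 (0.68 and 0.52 by genotype, adjusted p = 0.03). The glycolytic and vascular targets of the same list stayed short of the test, with *Ldha* at -0.01, *Slc2a1* at -0.16, *Vegfa* at -0.10 and *Egln3* at 0.01. In the clock list *Bhlhe40* was the only call among 14 genes. Antioxidant enzymes gave 1 call in 19, the fall of *Cat* described below, with *Hmox1* at 0.22 and *Sod2* at 0.11. Oxidative phosphorylation genes (25 tested) and glycolysis genes (18) gave 0 calls by limma, with medians of 0.10 and -0.07, and 0 and 1 of them had an unadjusted p under 0.05. For the former the genotypes differed in sign, with medians of 0.28 in Snx5+/+ and -0.06 in Snx5-/- lungs.

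*Depp1*, a target of FOXO transcription factors that regulates autophagy, read 12.87 and 12.78 without and 13.86 and 13.76 with air in Snx5+/+ lungs, and 12.45 and 12.58 without and 13.20 and 13.12 with air in Snx5-/- lungs. It was higher with air on every array and rose by 0.81 ± 0.09 (adjusted p = 0.00269). *Txnip*, which binds thioredoxin and limits glucose uptake, rose by 0.44 ± 0.08 (0.42 and 0.46 by genotype, adjusted p = 0.0263). *Srm*, the spermidine synthase of the polyamine pathway, read 10.28 and 10.10 on the Snx5+/+ non-air arrays, 10.94 and 11.11 on the Snx5+/+ air arrays, 10.27 and 10.19 on the Snx5-/- non-air arrays and 10.78 and 10.83 on the Snx5-/- air arrays. That was a rise of 0.70 ± 0.09 with no overlap (adjusted p = 0.00481), called at 2 of its 3 probes. *Rrp12*, a ribosome biogenesis factor, rose by 0.51 ± 0.09 (0.58 and 0.44 by genotype) and *Ears2*, the mitochondrial glutamyl-tRNA synthetase, by 0.40 ± 0.07 (0.49 and 0.30, adjusted p = 0.0403). Among 23 cytosolic ribosomal protein genes 0 were called by limma, 0 had an unadjusted p under 0.05, and the median was 0.0037.

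Of 18 sterol and fatty acid synthesis genes tested, 1 rose and 0 fell. Differences were above 0 for 17 of the 18, against 49.7% of all genes tested, and 14 had the same sign in both genotypes, with a median of 0.15 (0.18 in Snx5+/+, 0.13 in Snx5-/-). Other lists leaned to 1 side as well. Above 0 were 24 of 25 oxidative phosphorylation genes and 15 of 17 heat shock genes. Of these lists, 8 and 11 genes had the same sign in both genotypes. Genes of the sterol list share a pathway and are not separate observations. The called member was *Msmo1*, a sterol methyl oxidase (0.40 ± 0.07, 0.36 and 0.45 by genotype, adjusted p = 0.0353). *Hsd17b7*, which acts in the same pathway but was not on the list, rose by 0.41 ± 0.07 (0.47 and 0.35 by genotype, adjusted p = 0.0243). *Sqle* at 0.39 (adjusted p = 0.053), *Fdps* at 0.40 (0.078), *Cyp51* at 0.37 (0.083) and *Lss* at 0.42 (0.15) were as large and did not pass. In contrast, 22 genes of surfactant and type II cells and 16 genes of type I cells gave 0 calls by limma, with medians of -0.02 for both and, at an unadjusted p under 0.05, with 1 gene higher and 1 lower in the first and 1 lower in the second. *Sftpc*, the surfactant protein C gene, read 15.85 and 15.91 (Snx5+/+ non-air), 15.63 and 15.78 (Snx5+/+ air), 15.81 and 15.88 (Snx5-/- non-air) and 15.76 and 15.86 (Snx5-/- air), and *Ager*, the type I cell receptor, read 15.09 and 15.25 (Snx5+/+ non-air), 15.20 and 15.16 (Snx5+/+ air), 14.72 and 14.74 (Snx5-/- non-air) and 14.73 and 14.68 (Snx5-/- air). The air and non-air arrays overlapped for both, and their differences were -0.10 ± 0.08 and -0.01 ± 0.07. The remaining markers that the study followed differed at their brightest probes by 0.16 (*Aqp5*), 0.01 (*Pdpn*), -0.05 (*Sftpb*), -0.19 (*Sftpa1*) and 0.12 (*Sftpd*), with adjusted p from 0.53 to 0.98. A further probe differed by -0.08 for *Aqp5* (-0.32 in Snx5+/+, 0.16 in Snx5-/-), by -0.18 for *Sftpb* and by -0.09 for *Ager*, also without a call. In the type II list the medians were -0.25 in Snx5+/+ and 0.09 in Snx5-/- lungs.

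**Figure D4:**
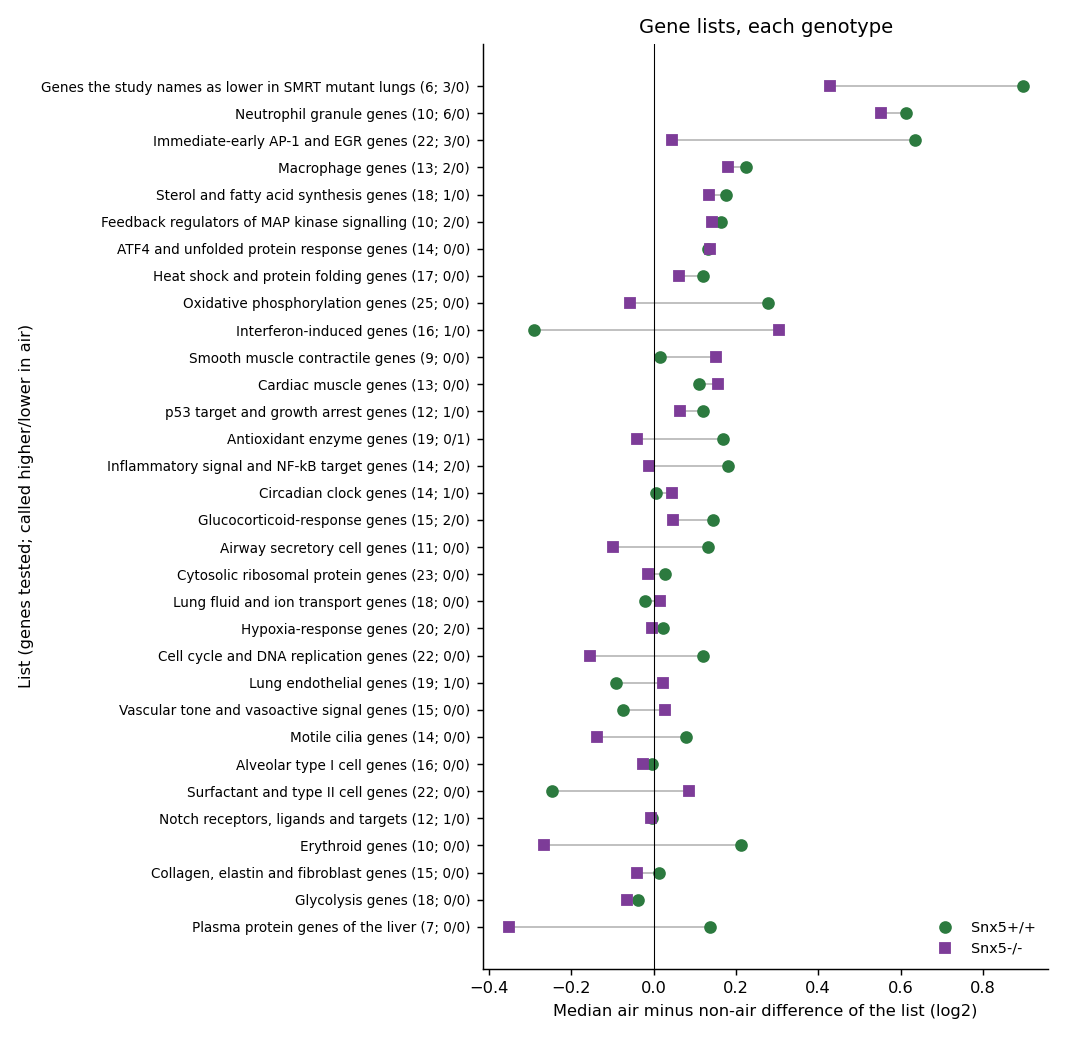
Median air minus non-air difference (log2, x axis) of each gene list in Snx5+/+ (green circles) and Snx5-/- lungs (purple squares), with the number of genes tested and called higher or lower in brackets. Neutrophil granule genes have medians of 0.61 and 0.55, immediate-early genes 0.64 and 0.04, and interferon-induced genes -0.29 and 0.30. Of the 6 genes that the study names for their fall in SMRT mutant lungs, 3 are called. All lists, this one included, were chosen with earlier results of these data known and are not independent of them.

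Immediate-early genes, transcribed within minutes of a stimulus, held 3 calls, and the change of many of them differed between the genotypes. Of 22 tested, 3 passed over both genotypes (*Ier2*, *Zfp36* and *Klf2*), 12 passed in Snx5+/+ lungs alone and 0 in Snx5-/- lungs alone (5 higher and 2 lower there at an unadjusted p under 0.05), with medians of 0.64 and 0.04. Of all genes tested, 0.503% were called higher over both genotypes, 0.642% in Snx5+/+ and 0.568% in Snx5-/- lungs alone. The difference between genotypes was itself called for 8 of the 22, and over all genes for 21 with a higher (0.225%) and 22 with a lower effect in Snx5-/- (0.236%). *Dusp1*, a phosphatase that ends MAP kinase signals, read 12.99 and 13.07 on the Snx5+/+ non-air arrays, 14.68 and 14.70 on the Snx5+/+ air arrays, 13.02 and 13.06 on the Snx5-/- non-air arrays and 13.56 and 13.44 on the Snx5-/- air arrays. Both genotypes started at the same level and every air array was above every non-air array, but the rise was 1.66 in Snx5+/+ and 0.46 in Snx5-/- lungs, which is 27.5% of it, and the difference of -1.21 ± 0.14 was called (adjusted p = 0.00168). Over both genotypes the rise was 1.06 ± 0.19 (adjusted p = 0.0315). *Zfp36*, for tristetraprolin, which destabilizes cytokine mRNAs, rose by 1.22 and 0.35 in Snx5+/+ and Snx5-/- lungs. *Klf2*, a flow-induced endothelial transcription factor, rose by 0.72 ± 0.12 over both (1.05 and 0.40 by genotype, with no called difference, adjusted p = 0.12). *Ier2* was not above background on any non-air array and was at least 1.86-fold higher in air, by at least 2.89-fold in Snx5+/+ and 1.2-fold in Snx5-/- lungs.

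*Fos*, *Egr1* and *Junb*, transcription factor genes of the same class, were not called over both genotypes. They rose by 3.29, 3.18 and 1.59 in Snx5+/+ lungs, with differences of 0.39, 0.07 and 0.36 in Snx5-/- lungs that did not pass. *Fosb*, another of them, was above background on the Snx5+/+ air arrays alone and at least 7.1-fold higher there than on the Snx5+/+ non-air arrays. *Ccn1*, for a secreted matrix protein, was called over both genotypes at 1 of its 3 probes (1.33 ± 0.24, adjusted p = 0.0314), and the probes differed by 1.78 to 2.22 in Snx5+/+ and by -0.20 to 0.63 in Snx5-/- lungs. *Fos* read 10.67 and 10.72 (Snx5+/+ non-air), 13.91 and 14.05 (Snx5+/+ air), 10.53 and 10.49 (Snx5-/- non-air) and 11.10 and 10.71 (Snx5-/- air). *Junb*, at 0.97 ± 0.19 with an adjusted p of 0.054, came closest to a call of these. Among 10 feedback regulators of MAP kinase signalling, *Dusp1* and *Dusp6* rose, the latter by 0.49 ± 0.08 (adjusted p = 0.0234, called at 2 of 3 probes, with 0.01 at the third), and the median was 0.14. *Dusp6*, a phosphatase of ERK, differed by 0.39 in Snx5+/+ and 0.59 in Snx5-/- lungs. *Gadd45g*, a stress-induced growth arrest gene, was the call among 12 p53 target genes. It read 13.85 and 13.61 without and 14.28 and 14.31 with air in Snx5+/+ lungs, and 13.62 and 13.77 without and 14.13 and 14.13 with air in Snx5-/- lungs, a rise of 0.50 ± 0.08 (adjusted p = 0.0199) with both probes called and no overlap of states. Of 15 glucocorticoid-response genes, *Dusp1* and *Ddit4* rose, while *Fkbp5* and *Per1* were each at -0.01 and *Sgk1* at 0.35 (adjusted p = 0.12). The promoter windows of *Dusp1*, where the genotypes differed, and *Gadd45g*, where no difference was called (-0.13), are set side by side to show what a search of all windows for motifs found in them. They lie at chr17:26508423-26508722 on the minus and chr13:51846425-51846724 on the plus strand, with the cyclic AMP response element TGACGTCA in capitals in *Dusp1* and TATAAA in *Gadd45g*.
Dusp1: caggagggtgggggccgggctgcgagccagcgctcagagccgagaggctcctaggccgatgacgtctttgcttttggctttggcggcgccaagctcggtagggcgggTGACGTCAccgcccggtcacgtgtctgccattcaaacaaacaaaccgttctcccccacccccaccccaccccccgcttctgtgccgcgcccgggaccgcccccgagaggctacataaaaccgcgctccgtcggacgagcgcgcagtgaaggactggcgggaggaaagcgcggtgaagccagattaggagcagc
Gadd45g: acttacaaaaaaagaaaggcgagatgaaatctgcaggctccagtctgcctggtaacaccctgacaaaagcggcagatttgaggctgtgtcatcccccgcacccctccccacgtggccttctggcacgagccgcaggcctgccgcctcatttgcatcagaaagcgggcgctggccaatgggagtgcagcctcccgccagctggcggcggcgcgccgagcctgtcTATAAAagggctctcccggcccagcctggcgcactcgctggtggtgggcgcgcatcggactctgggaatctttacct
The run in capitals starts at -143 in *Dusp1* and at -27 in *Gadd45g*. The hypoxia core ACGTG, which is not in capitals, was also found in each window, on both strands. TGACGTCA was found in 1 of the 38 windows of genes that rose (2.63%) and in 3.17% of tested genes. The AP-1 letters TGANTCA, read on both strands like the others, were in 5.26% and 5.25%, ACGTG in 28.9% and 25.3%, the glucocorticoid receptor letters AGAACA in 13.2% and 12.2%, and the heat shock letters GAANNTTC in 5.26% and 5.54%. A serum response element, searched in a pair of its common forms, was in 0 of 38 (0.0397% of tested genes). Such matches are descriptions of the letters alone.

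Further single genes rose in both genotypes. *Hes1*, a repressor induced by Notch signals, was the call among 12 Notch receptors, ligands and targets, with 11.19 and 11.22 (Snx5+/+ non-air), 11.56 and 11.59 (Snx5+/+ air), 11.05 and 11.16 (Snx5-/- non-air) and 11.87 and 11.72 (Snx5-/- air), a rise of 0.53 ± 0.09 (adjusted p = 0.0207). *Hey1*, *Heyl* and *Nrarp* differed by -0.12, -0.10 and 0.21, and the list had a median of -0.03. *Rsad2*, for the antiviral protein viperin, was the call among 16 interferon-induced genes (0.44 ± 0.07, adjusted p = 0.0212) and rose by 0.40 and 0.48, whereas the list's medians were -0.29 in Snx5+/+ and 0.30 in Snx5-/- lungs. *Ifi27l2a* (0.72 ± 0.14, 0.76 and 0.67 by genotype), *Hlx*, a homeobox gene (0.58 ± 0.08, 0.68 and 0.47), *Bhlha15*, a transcription factor of secretory cells (0.49 ± 0.09, 0.33 and 0.65, 1 of 3 probes called), *Pim3*, a kinase (0.45 ± 0.07, 0.51 and 0.38), and *Ackr2*, a receptor that scavenges chemokines (0.38 ± 0.07, 0.45 and 0.32), also rose. Lists for airway secretory cells, motile cilia, ion and fluid transport, vascular tone, smooth and cardiac muscle, collagen and fibroblasts, cell cycle, heat shock and the unfolded protein response gave 0 calls each by limma, with medians between -0.05 and 0.14. At an unadjusted p under 0.05 each had 0 to 6 genes higher and 0 to 2 lower, led by 6 of 14 unfolded protein response genes and 5 of 13 cardiac genes on the higher side. In the endothelial list *Klf2* was the call among 19 genes.

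The 9 genes that fell were *Tmem87a*, *Flrt3*, *Cat*, *Abca8a*, *Rbm45*, *Slc15a2*, *Vps39*, *Traf1* and *N4bp2l1*. *Flrt3*, a membrane protein of cell adhesion and fibroblast growth factor signalling, read 12.92 and 12.79 on the Snx5+/+ non-air arrays, 12.10 and 11.80 on the Snx5+/+ air arrays, 12.82 and 12.62 on the Snx5-/- non-air arrays and 12.24 and 11.74 on the Snx5-/- air arrays. Air arrays lay below non-air arrays throughout and the gene fell by 0.82 ± 0.12 (adjusted p = 0.0126) at this probe, with all 3 probes called. *Cat*, the catalase that breaks down hydrogen peroxide, read 12.33 and 12.54 without and 11.66 and 11.69 with air in Snx5+/+ lungs, and 12.77 and 12.69 without and 12.38 and 12.20 with air in Snx5-/- lungs. Within each genotype both air arrays were lower, while the first Snx5-/- air array lay within the Snx5+/+ non-air range, for a fall of 0.60 ± 0.09 (adjusted p = 0.0169). *Abca8a*, a transporter of the ABC family, fell by 0.60 ± 0.11 (0.86 in Snx5+/+ and 0.33 in Snx5-/- lungs), and *Slc15a2*, a proton-coupled peptide transporter, fell by 0.51 ± 0.08 with no overlap (0.59 in Snx5+/+ and 0.42 in Snx5-/- lungs, adjusted p = 0.0199). *Rbm45*, an RNA-binding protein, fell by 0.60 (by 0.76 in Snx5+/+ and by 0.43 in Snx5-/- lungs), *Traf1*, an adaptor of tumour necrosis factor receptors, fell by 0.43 (by 0.41 and by 0.46) and *N4bp2l1* fell by 0.37 (by 0.38 and by 0.37). *Vps39*, a subunit of the HOPS complex of late endosomes, was called lower at both of its probes. Its brighter probe was not above background on the Snx5+/+ air arrays, for a fall of at least 1.4-fold there, and had a log2 difference of -0.52 in Snx5-/- lungs.

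Chromosome 2, which carries *Snx5* and so the trapped allele, held 11 of the 56 calls. It had 773 of the genes tested (8.28%), of which 1.42% were called, against 0.525% of 8566 genes on other chromosomes. For genes that fell the shares were 0.776% and 0.035%, and for genes that rose 0.647% and 0.49%. The 6 that fell were *Tmem87a*, *Flrt3*, *Cat*, *Rbm45*, *Vps39* and *Traf1*, and the 5 that rose were *Lrrc57*, *Rmdn3*, *Ccndbp1*, *Prom2* and *Il1b*. Counted in protein-coding genes along the chromosome, *Flrt3* was 9 places from *Snx5*, *Il1b* 94, *Prom2* 118, *Ccndbp1* 203, *Lrrc57* 210, *Tmem87a* 215, *Vps39* 216 and *Rmdn3* 248, and *Cat*, *Rbm45* and *Traf1* were 378 to 950 places away. *Lrrc57*, a leucine-rich repeat protein of unsettled role, read 10.14 and 10.42 on the Snx5+/+ non-air arrays, 11.08 and 10.84 on the Snx5+/+ air arrays, 7.49 and 7.64 on the Snx5-/- non-air arrays and 10.35 and 10.16 on the Snx5-/- air arrays. The Snx5-/- non-air arrays were far below all others and the air arrays of both genotypes were close together. The rise was 0.69 in Snx5+/+ lungs. In Snx5-/- lungs the probe was not above background on either non-air array and the rise was at least 4.91-fold, with a called difference between genotypes (adjusted p = 0.000255). *Rmdn3*, a protein of contacts between mitochondria and the endoplasmic reticulum, read 10.5 and 10.49 without and 11.17 and 11.26 with air in Snx5+/+ lungs, and 8.54 and 8.61 without and 10.60 and 10.53 with air in Snx5-/- lungs, with a called difference of 1.28, and a further *Rmdn3* probe differed by -0.09 over both genotypes. *Tmem87a*, a membrane protein of the Golgi, read 10.96 and 10.77 (Snx5+/+ non-air), 9.15 and 9.06 (Snx5+/+ air), 11.54 and 11.52 (Snx5-/- non-air) and 11 and 10.82 (Snx5-/- air). The Snx5+/+ air arrays stood far below the rest, and the falls of 1.76 and 0.63 differed by 1.13 ± 0.16 (adjusted p = 0.00575). In each of the 3 the genotypes differed in 1 state far more than in the other, and whether the trapped chromosome plays a part was not tested. With chromosome 2 left out, 42 genes rose and 3 fell.

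**Figure D5:**
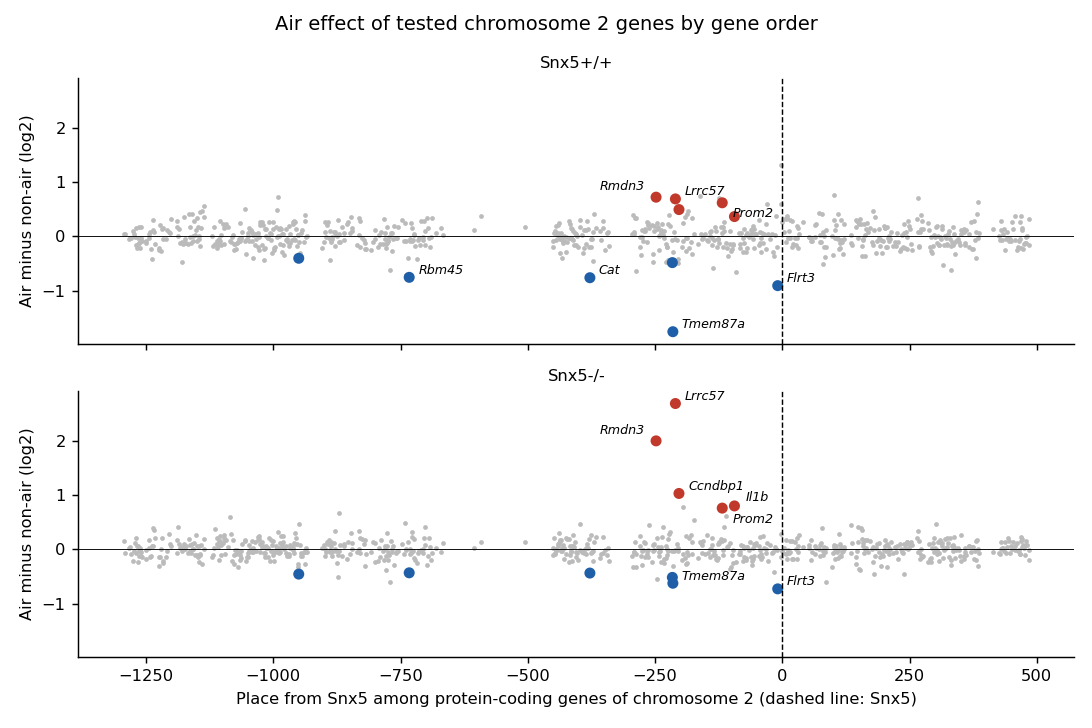
Air minus non-air difference (log2, y axis) of the tested chromosome 2 genes by their place from *Snx5* in gene order (x axis, dashed line at *Snx5*), for Snx5+/+ lungs (top) and Snx5-/- lungs (bottom), with the 11 called genes in red (higher) and blue (lower). *Rmdn3* stands out in Snx5-/- lungs at 2.0, as does *Lrrc57*, whose non-air arrays there were not above background, and *Tmem87a* in Snx5+/+ lungs at -1.76.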

How the data were processed

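Whole-lung RNA was measured on 8 single-colour Illumina MouseRef-8 bead arrays. The authors deposited log2 intensities, which their methods describe as quantile normalized, and non-normalized intensities (linear scale, 107.6 to 71060) with a detection p-value per probe. The sources used here do not say how the authors computed the deposited detection p-values. The deposited log2 values differ by at most 0.182 (SD 0.0109) from quantile normalized log2 values of the intensity columns of the other air state, so the log2 table was analysed under its own labels. Non-air mutant samples carry a description naming wild-type lungs and were mapped by title and genotype. Per-sample columns not used numbered 0.

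Models were fitted in R 4.3.3 by limma 3.58.1 (lmFit and eBayes), with genotype and air as terms. Probes with a group mean above 8 in at least 1 of 4 groups were tested (13830 probes), and p-values were adjusted over all of them by Benjamini-Hochberg. A call needed an adjusted p under 0.05 and a log2 difference past 0.35, the rounded fold cutoff of the methods. The brightest probe stood for a gene: 9640 genes were tested, of which 301 on X or Y were left out afterwards and 3 had no chromosome. Of 25697 probes, the platform annotation names 1 gene for 23978, several for 0 and none for 1719, and 23962 matched the RefSeq table of GRCm38.p6. The effect within each genotype and its difference (interaction) came from a fit of 4 group means. A fold given as "at least" sets the air mean against, per array, the higher of the lowest detected signal and the probe's own. The fit over both genotypes was tested on simulated data with changed genes among 13830 probes. It recovered 76%, 94%, 96% and 100% of log2 changes of 0.5, 0.75, 1 and 2, with 5 false calls in 188. How this fit does where the effect of air differs between the genotypes was not tested.

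Named are the 15 largest changes per direction among called genes detected on all arrays, up to 5 undetected without air, the called and some other members of each list, and markers the study names. *Lrrc57*, *Prom2*, *Pisd-ps2*, *Vps39*, *Srm*, *Rrp12*, *Ears2*, *Txnip*, *Hsd17b7*, *Ifi27l2a*, *Hlx*, *Bhlha15*, *Pim3* and *Ackr2* lie outside this rule and were chosen after their values were seen. The members and gene lists were chosen with earlier results of these data known. Alternatives were the other table's labels, neqc (offset 16), 64 added before log2, other filters, an intensity trend, array weights, a replicate block, *Xist* as a covariate, other probe choices, a plain t-test without genotype, each array left out and chromosome 2 left out.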

Additional observations from a re-analysis of the deposited data

Results flagged for a closer look

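For 13 of the genes described, the effect of air differed between the genotypes by a test of the difference itself (limma interaction, adjusted over all probes). The values below are the log2 difference with air in Snx5-/- lungs minus that in Snx5+/+ lungs, with 2 arrays per group.

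On chromosome 2, which carries the trapped gene, the effect was larger in Snx5-/- lungs by 1.28 for *Rmdn3* (0.72 and 2.0). For *Lrrc57* the fitted difference of 2.0 is no measured size, since the probe was not above background on the Snx5-/- non-air arrays. The rise was 0.69 in Snx5+/+ and at least 4.91-fold in Snx5-/- lungs. *Tmem87a*, which fell in both, differed by 1.13 (-1.76 and -0.63).

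Immediate-early genes were lower in their effect in Snx5-/- lungs. The difference was -3.12 for *Egr1*, -2.89 for *Fos*, -1.27 for *Atf3* and -1.23 for *Junb*, all without a call over both genotypes, and -1.21 for *Dusp1* and -0.87 for *Zfp36*. It was -2.42 at the brightest of 3 *Ccn1* probes, of which another was called over both genotypes. The fitted differences of -2.87 for *Fosb* and -1.28 for *Ier2* are no measured sizes: *Fosb* was above background on the Snx5+/+ air arrays alone, and *Ier2* on the air arrays alone, where it was at least 2.89-fold higher in Snx5+/+ and 1.2-fold in Snx5-/- lungs. *Ier2*, *Dusp1* and *Zfp36* are among the genes called over both genotypes, and the effects of the latter 2 were 0.46 and 0.35 in Snx5-/- lungs. *Inmt*, a methyltransferase that the study names, differed by 1.16, with -0.18 in Snx5+/+ and 0.98 in Snx5-/- lungs. The Snx5-/- air arrays are those with high Y-linked and low *Xist* levels, and the part of this in the differences was not tested.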

How the results depend on the processing

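All values rest on 8 arrays, 2 per group, and the smallest exact two-sided permutation p, with air labels permuted within genotype, is 0.0556. Array signal near background limits *Snx5*, *Ier2*, *Ccl4*, *Il1b*, *Fosb*, *Lrrc57*, *Prom2*, *Camp*, *Ngp*, *Pisd-ps2* and *Vps39*, whose fitted differences are no measured sizes. The main counts were 47 higher and 9 lower genes. Under the labels of the intensity table every direction turned: 10 genes were higher and 52 lower, with all 47 called lower and all 9 called higher, both overall and as genes moving the same way in both genotypes. The turned log2 differences were -1.84 (*Fos*), -1.69 (*Lrrc57*), -1.62 (*Egr1*), -1.49 (*Fosb*), -1.35 (*Rmdn3*), -1.16 (*Fcgr4*), -1.08 (*Ier2*), -1.06 (*Dusp1*), -1.01 (*Ccn1*), -0.97 (*Junb*), -0.95 (*S100a9*), -0.94 (*Cstdc4*), -0.86 (*Stfa1*), -0.86 (*S100a8*), -0.83 (*Stfa2*), -0.82 (*Bhlhe40*), -0.82 (*Depp1*), -0.79 (*Pisd-ps2*), -0.78 (*Csta2*), -0.78 (*Zfp36*), -0.78 (*Csta3*), -0.77 (*Ccndbp1*), -0.76 (*Camp*), -0.73 (*Klf2*), -0.72 (*Retnlg*), -0.72 (*Ifi27l2a*), -0.70 (*Srm*), -0.69 (*Prom2*), -0.67 (*Ltf*), -0.64 (*Ccl4*), -0.63 (*Atf3*), -0.60 (*Ddit4*), -0.58 (*Il1b*), -0.58 (*Hlx*), -0.57 (*C1qb*), -0.54 (*C1qc*), -0.53 (*Hes1*), -0.52 (*Ifitm6*), -0.51 (*Tafa4*), -0.51 (*Rrp12*), -0.51 (*Ngp*), -0.50 (*Gadd45g*), -0.49 (*Bhlha15*), -0.49 (*Dusp6*), -0.47 (*Klf4*), -0.45 (*Pim3*), -0.44 (*Txnip*), -0.44 (*Wfdc1*), -0.44 (*Rsad2*), -0.41 (*Hsd17b7*), -0.40 (*Inmt*), -0.40 (*Msmo1*), -0.40 (*Adpgk*), -0.39 (*Ears2*), -0.38 (*Ackr2*), -0.24 (*Lgals3bp*), -0.16 (*Aqp5*), -0.12 (*Sftpd*), -0.0099 (*Pdpn*), 1.19 (*Tmem87a*), 0.82 (*Flrt3*), 0.60 (*Cat*), 0.60 (*Abca8a*), 0.60 (*Rbm45*), 0.51 (*Slc15a2*), 0.49 (*Vps39*), 0.43 (*Traf1*), 0.37 (*N4bp2l1*), 0.19 (*Sftpa1*), 0.10 (*Sftpc*), 0.056 (*Sftpb*), 0.0083 (*Ager*). Which labels are right was not tested beyond the detection p-values.

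With neqc 11 and 1 genes were called (the same number moving the same way), 37 genes in Snx5+/+ and 31 in Snx5-/- lungs alone, 51.6% of the latter kept their sign in Snx5+/+ lungs, and 25 interactions were called. The fit of 4 group means, whose spread leaves out the interaction, called 96 and 21 genes, of which 89 and 20 moved the same way. Array weights gave 21 lower genes and the *Xist* covariate 14. The plain t-test without genotype gave 0 and 0 after adjustment, and 90 and 32 with an unadjusted p under 0.05 past the fold cutoff. Without chromosome 2, an alternative chosen after seeing the data, 3 genes were lower. *Ager* was at 0.025 with array weights and 0.0087 with the *Xist* covariate, under which *Inmt* was at -0.096. No filter (61 and 11), a detection filter (46 and 9), an intensity trend (54 and 9), 64 added before log2 (49 and 9), X and Y probes left out before the fit (53 and 9), any probe of a gene (51 and 10) and the mean of its probes (45 and 11) gave counts within 1.5 times.

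Replicate numbers did not pair the arrays, as deviations of same-numbered arrays correlated between -0.227 and 0.278 over 6 pairs of groups, and the fit with the replicate number as a block called 32 and 9 genes, 31 and 7 of them among the first 47 and 9. Leaving out each array in turn gave 11 to 47 higher and 1 to 10 lower genes, 20 to 860 calls in Snx5+/+ and 14 to 88 in Snx5-/- lungs alone, 43.5% to 80.8% and 50% to 69.8% of them with the same sign in the other genotype, and 22 to 423 interactions. The range was -0.049 to 0.0496 for *Pdpn*, -0.12 to 0.017 for *Sftpb* and -0.046 to 0.019 for *Ager*, each near 0. Among the genes whose turned differences are given above, no other changed direction under any alternative except the exchanged labels. Medians of the lists were not checked for direction. Of the 56 called genes, 11 passed with every array left out in turn and 0 passed in all other settings, since the t-test called none. Without the first Snx5+/+ non-air array, the Snx5+/+ non-air group rests on 1 array assumed to vary like the others; the cause of the 860 calls was not tested.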

Other observations

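Of 16 interferon-induced genes tested, 1 was called over both genotypes and 5 had the same sign in each. In the fits by genotype 4 were higher with air in Snx5-/- lungs and 3 lower in Snx5+/+ lungs, and the difference between genotypes was called for 5. *Ifit3*, an antiviral protein that binds foreign RNA, had log2 intensities of 10.62 and 10.58 without and 9.94 and 10.14 with air in Snx5+/+ lungs, and of 9.97 and 9.86 without and 11.05 and 11.17 with air in Snx5-/- lungs. *Gbp2*, a guanylate-binding protein, differed by -0.22 and 0.93 in the same order.

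Of 7 plasma protein genes of the liver tested, 6 read 7.27 to 8.65 over the arrays and *Trf*, for transferrin, read 13.98 to 14.83. Called over both genotypes by limma were 0 of the 7, with 2 lower at an unadjusted p under 0.05. In Snx5-/- lungs alone 2 were called lower with air, *Fga*, a fibrinogen chain, and *Apoa1*, an apolipoprotein, whose probes were above background on 2 and 0 of 8 arrays, so that no size is given.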
